A study of Drosophila melanogaster with 3 samples.

Results

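The insulin, TOR and translation control genes described here are 9 Drosophila genes, InR, chico, Akt, foxo, Tor, S6k, Thor, Lk6 and larp, of the 13945 protein-coding genes on the chromosome arms. The data are lists of regions bound by Plzf, a zinc finger protein encoded by CG6792. They come from chromatin immunoprecipitation followed by sequencing (ChIP-seq) in whole prepupae, the stage at which metamorphosis begins. Every animal came from a transgenic line that stably expresses Plzf with GFP at its C terminus, males and females were pooled, and the age is unknown, per the labels. The description in the labels gives an antibody against GFP for the immunoprecipitation, whereas their antibody field names CG6792. There was 1 group of 3 biological replicates and no second condition, so every value is a description and no test was made. All tissues of the animal contributed to each library, and neither the expression of the genes nor the fusion protein's level was measured.

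A region was given to a gene where its summit, the position of highest enrichment, lay inside the gene or within 5 kb of it. The main list holds 7096 regions that passed the irreproducible discovery rate (IDR) procedure, which keeps regions whose ranks recur between replicates. These are called IDR regions, and they were the strongest 7096 of 30000 regions called on the pooled replicates. Each replicate also has its own list of 30000 regions. The strength of a region is the signal given by the authors' caller, on a scale of its own in each list, so replicates are set side by side by rank within their list, with rank 1 the strongest. The members were chosen by the regions seen near them in these lists and by their signals, so the number, position and signal of their regions describe that choice.

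In insulin signalling, the receptor InR acts through the adaptor chico and the kinase Akt, which keeps the transcription factor foxo out of the nucleus. The kinase Tor drives growth when nutrients are plentiful, and it acts on translation through the kinase S6k and through Thor, a protein that holds the cap-binding factor eIF4E inactive. Lk6 is a kinase of eIF4E, and larp is an RNA-binding protein that takes part in the translation of mRNAs for the protein synthesis machinery. In flies insulin and TOR signalling influences body size, and it links feeding to the growth that ends as the prepupa forms.

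Of the 9 members, 7 had an IDR summit in the gene or within 5 kb, and chico and Tor had none. Among all protein-coding genes, 52.0% had one, with 71.9% of the genes of 10 kb or more and 48.7% of the shorter genes. The 7 members held 31 IDR regions. Over the windows of all 9 members, chico and Tor included, the density was 13.1 per 100 kb, against 5.30 per 100 kb of the chromosome arms. These are unlike bases, because the arms include sequence far from genes, and the density over the windows of other genes was not computed. The signals of the 31 regions ran from 82.5 to 2225.4 with a median of 133.7. Those of the IDR list ran from 79.59 to 3443.8 with a median of 145.0. Only 13 of the 31 were above the median of the IDR list, while 3 of them were among the 94 IDR regions above 1000. The members' regions were thus mostly of ordinary strength, and 3 stood far above the others.

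The windows of 50 bp to each side of the strongest summit of 6 members are shown because the results turn on these sites, with the InR window of highest GC content for contrast and the Tor window found in single replicates. Each is given 5′ to 3′ on the strand of its gene, from the RefSeq genome of the dm6 assembly, and capitals mark runs of at least 6 A or T bases.
Lk6 intron, chr3R:11760998-11761098, minus strand: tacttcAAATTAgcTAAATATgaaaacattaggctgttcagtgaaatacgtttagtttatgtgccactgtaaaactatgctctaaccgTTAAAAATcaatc
larp internal promoter, chr3R:28326549-28326649, minus strand: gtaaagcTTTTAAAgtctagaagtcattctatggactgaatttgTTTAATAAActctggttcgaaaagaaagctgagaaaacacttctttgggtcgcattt
Akt upstream, chr3R:16097772-16097872, plus strand: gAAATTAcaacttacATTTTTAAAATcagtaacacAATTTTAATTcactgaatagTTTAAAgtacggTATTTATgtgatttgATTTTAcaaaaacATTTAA
foxo upstream, chr3R:14053563-14053663, plus strand: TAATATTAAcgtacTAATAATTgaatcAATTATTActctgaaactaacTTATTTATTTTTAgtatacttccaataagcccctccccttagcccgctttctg
InR intron, chr3R:21608756-21608856, minus strand: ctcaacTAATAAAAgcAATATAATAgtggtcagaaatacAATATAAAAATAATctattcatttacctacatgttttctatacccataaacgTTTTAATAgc
S6k intron, chr3L:5808232-5808332, minus strand: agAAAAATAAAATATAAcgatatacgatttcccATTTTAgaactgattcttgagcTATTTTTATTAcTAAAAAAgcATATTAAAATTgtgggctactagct
InR intron of highest GC content, chr3R:21605395-21605495, minus strand: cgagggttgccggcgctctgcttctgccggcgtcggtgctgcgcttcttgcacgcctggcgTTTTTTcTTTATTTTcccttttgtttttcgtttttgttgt
Tor promoter, replicate 1, chr2L:13004176-13004276, plus strand: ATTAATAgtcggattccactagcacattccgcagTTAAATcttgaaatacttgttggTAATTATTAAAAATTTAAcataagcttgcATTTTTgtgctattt

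By position, 15 of the 31 summits (48.4%) lay in an intron, 7 (22.6%) within 500 bp of a transcription start site (TSS) of the gene itself, 7 farther upstream and 2 downstream. The 500 bp around a TSS are called the promoter here. Promoter positions were assigned before intronic ones, and 18 of the 31 summits lay in an intron of some isoform. Shares by position were not computed for the other IDR regions. The promoter regions had signals of 103.6 to 2098.4 with a median of 172.4, the intronic ones 82.5 to 2225.4 with a median of 123.1, and the upstream ones 103.4 to 1057.4 with a median of 161.1. The strongest region of each of 3 members, InR, S6k and Lk6, was intronic. Of the 9 members, 4 had a promoter summit, namely InR, foxo, Thor and larp, against 19.8% of all protein-coding genes and 30.2% of those of 10 kb or more. The members have 21 annotated TSSs, of which 10 had an IDR summit within 500 bp and 18 a region of the pooled list. Some of these TSSs lie close together, so the 10 shared the 7 promoter regions. The same shares were not computed over the TSSs of all genes.

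**Figure D1:**
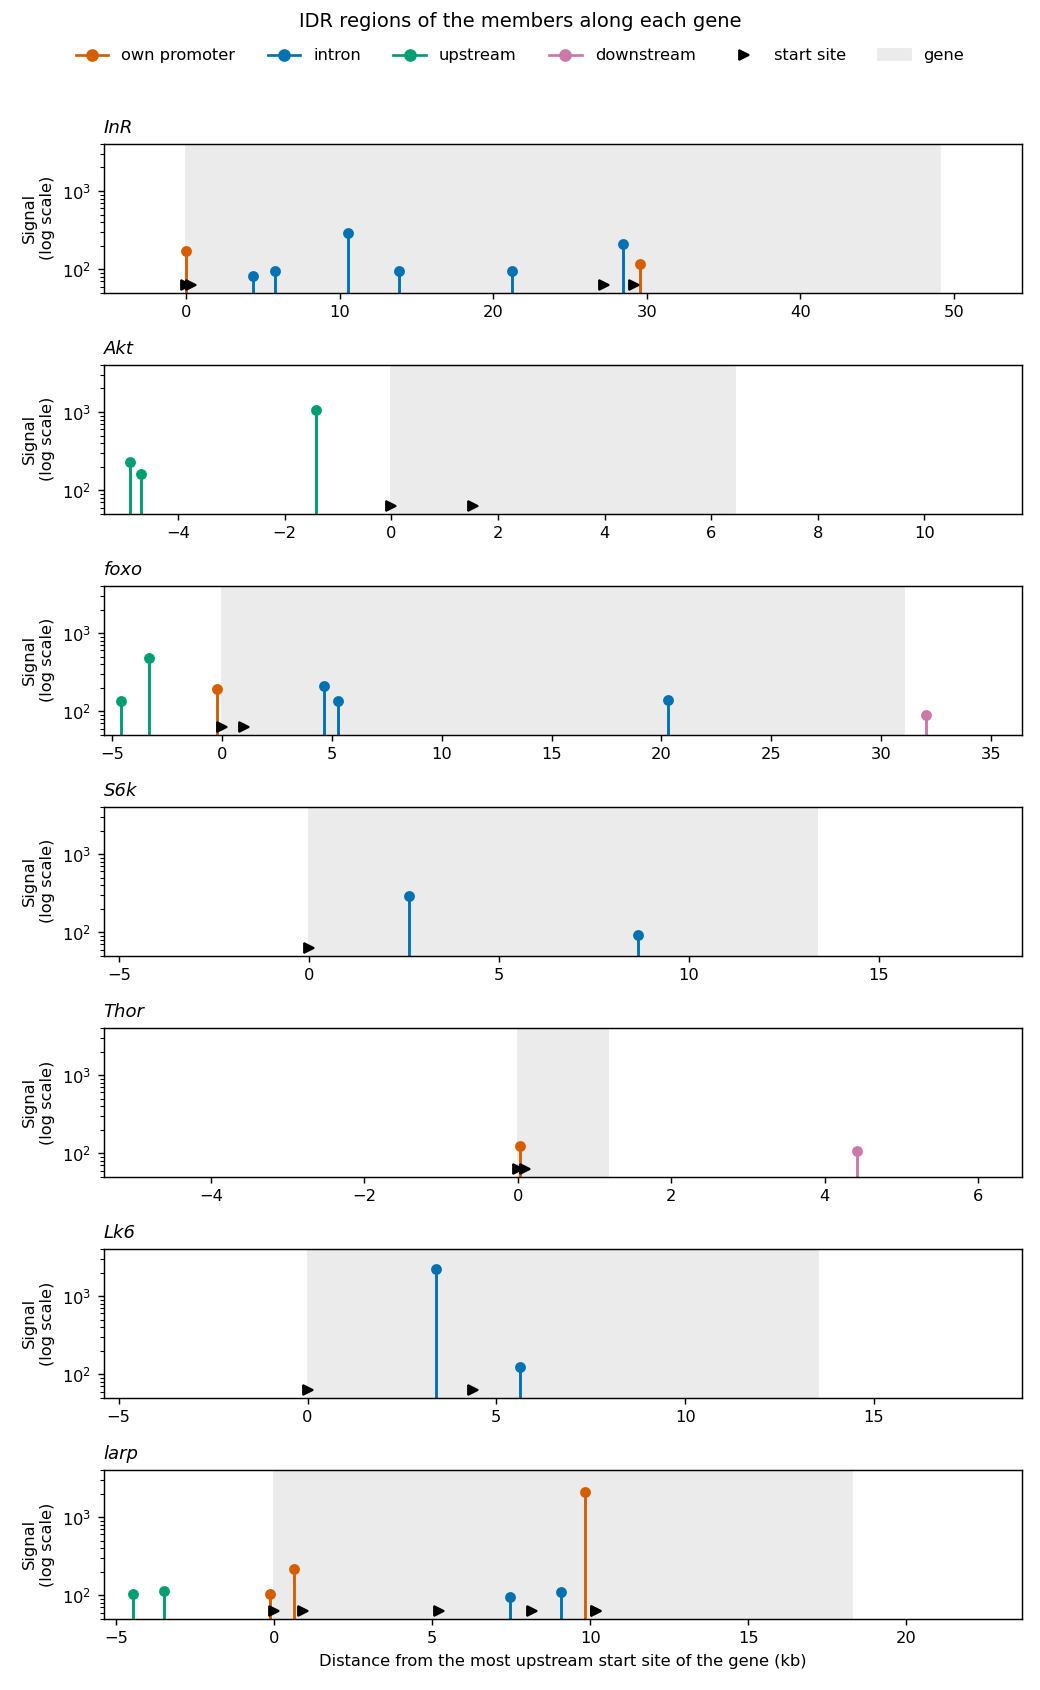
IDR regions along the 7 members that have one, with the distance from the gene's most upstream start site (kb, in the direction of transcription) on the x axis and the signal in the pooled list on a log y axis. Each stem is 1 region coloured by position, triangles are start sites and grey is the gene. The tallest stems stand at internal positions of Lk6 (2225.4) and larp (2098.4) and upstream of Akt (1057.4).

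InR, the insulin receptor gene (FBgn0283499, chr3R:21570248-21619321, minus strand), had 8 IDR regions, more than any other member. There were 99 protein-coding genes with more, and 97 of them are 10 kb or longer (4.91% of that class). The region at the most upstream TSS (chr3R:21619148-21619587) had its summit 47 bp upstream of the start of isoform InR-RB, with a signal of 172.4. Its signal was 62.59, 50.48 and 60.34 in replicates 1, 2 and 3, at ranks 2232, 4768 and 2115. Replicate 2 thus placed the InR promoter lower than the other replicates did.

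The strongest InR region, at 292.9, was in an intron of InR-RA and InR-RB, 10230 bp from the nearest upstream InR start (chr3R:21608706-21608851). Its signals of 97.14, 120.0 and 73.32 put it at ranks 1157, 1439 and 1609, so all 3 replicates placed it above the promoter. A weaker pooled region beside it, at 68.57, was outside the IDR list. Replicates 2 and 3 listed that neighbour at ranks 5871 and 5822, with summits 190 and 189 bp from the stronger one. The next InR region in strength, at 209.0, was 663 bp upstream of the internal start of InR-RD and within an intron of the other 3 isoforms (chr3R:21590811-21590950). It had signals of 58.98, 86.89 and 59.29 and ranks of 2447, 2347 and 2175, which is close placing in the 3 replicates. A further region, at 117.4, was 451 bp downstream of the InR-RD start, at ranks 2896, 7305 and 4679. The start of InR-RC had no IDR summit within 500 bp. The remaining 4 InR regions, all intronic, had signals of 82.5 to 95.14, near the lower end of the IDR list, and 2 of them had no summit within 100 bp in 1 replicate each.

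For chico, the adaptor that InR phosphorylates (FBgn0024248, chr2L:10242512-10247078, minus strand), no region of the pooled list passed IDR. The pooled region nearest its only TSS had a signal of 18.07 at rank 27790, close to the end of the list. The strongest of 6 pooled regions in its window reached 45.99 at rank 12273, and that summit was 155 bp from the start of the neighbouring gene me31B. None of the replicates had a region among its strongest 7096 in the chico window.

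Akt (FBgn0010379, chr3R:16099228-16105670, plus strand), the kinase downstream of the receptor, had 3 IDR regions, all upstream of the gene and inside the neighbouring gene Mhcl, which encodes a myosin heavy chain-like protein. The strongest, at 1057.4 and rank 84, was 1406 bp upstream of the Akt start and 939 bp from an Mhcl start, in an intron of Mhcl (chr3R:16097626-16098018). Its signals in replicates 1, 2 and 3 were 322.5, 408.9 and 330.5, at ranks 75, 114 and 67. It was therefore near the top of every list, although it lay nearer a start of Mhcl than the start of Akt. The other 2 regions, at 232.2 and 161.1, overlapped each other and had summits 182 and 381 bp from an Mhcl start. At the Akt start itself the pooled list had a region of 70.93, below the lowest IDR signal, with its summit 495 bp into the gene.

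foxo (FBgn0038197, chr3R:14056945-14087978, plus strand), the transcription factor that Akt restrains, had 7 IDR regions spread from 4590 bp upstream to beyond its 3′ end. The strongest, at 473.4 and rank 584, was 3332 bp upstream of the first foxo start, and no start of another gene was nearer (chr3R:14053418-14053733). Replicates 1, 2 and 3 gave it 145.4, 200.0 and 129.5, at ranks 544, 618 and 601. The region at the first start, used by 4 of the 5 isoforms, had its summit 221 bp upstream with a signal of 191.6 (chr3R:14056504-14056943). Its signals of 54.49, 81.1 and 54.09 gave ranks of 2718, 2593 and 2501. The worst rank was 1.14 times the best for the upstream region and 1.09 times for the promoter region, against a median of 1.86 over the member regions matched in 3 replicates.

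An intronic foxo region, at 212.8, lay 4657 bp downstream of the first start, in an intron of all 5 isoforms (chr3R:14061452-14061675). Its signals were 33.9, 146.2 and 31.18, at ranks 4934, 1048 and 4971. Replicate 2 thus placed this region far higher than the others did. Its worst rank was 4.74 times its best, the widest spread among the member regions matched in 3 replicates. The region farthest upstream, at 135.5, had ranks of 3006, 11190 and 4710 by the nearest summit. Replicate 2 also listed a stronger region overlapping it, at rank 5641 with its summit 116 bp away, so its low rank there rests on which of the 2 summits is taken. With the stronger one, a choice made after seeing the data, the worst rank was 1.88 times the best in place of 3.72. Of the other intronic regions, 1 at 133.7 lay near the one just described, and 1 at 140.1 was 20274 bp from the first start. The downstream region had 89.4 and was 511 bp from the start of Npc2b. The second foxo start, of isoform foxo-RG, had only a weak pooled region of 29.89.

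Tor (FBgn0021796, named mTor in the annotation, chr2L:13004480-13013197, plus strand), the kinase at the centre of nutrient signalling, had no region of the pooled list in its window. Replicates 1 and 2 nevertheless each listed a region at its promoter. In replicate 1 the region (chr2L:13004026-13004425) had a signal of 67.3 at rank 2024, with its summit 254 bp upstream of the Tor start and 119 bp from the start of the divergent gene Vha68-1. In replicate 2 the region (chr2L:13004090-13004513) had 58.98 at rank 3923, with its summit 178 bp upstream. Replicate 3 had no region within 500 bp of the start, and its only one in the window had 7.284 at rank 25993, 1534 bp upstream. The nearest pooled summit was 7953 bp from the summit of replicate 1. Such loss from the pooled list was rare: of 5068 regions among the strongest 7096 in both replicates 1 and 2, 21 (0.414%) had no pooled summit within 500 bp, and 7 of these, the Tor region included, also had none in replicate 3. The corresponding numbers were 61 of 5191 (1.18%) for replicates 1 and 3 and 25 of 4988 (0.501%) for replicates 2 and 3.

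S6k (FBgn0283472, chr3L:5797549-5810931, minus strand), which phosphorylates ribosomal protein S6, had 2 IDR regions, both in introns of both isoforms. The stronger, at 287.5, was 2649 bp downstream of the only start (chr3L:5808199-5808428), with signals of 91.87, 110.9 and 96.87 and ranks of 1271, 1657 and 1030 in replicates 1, 2 and 3. The weaker, at 92.57, was 8657 bp downstream and 759 bp from the start of CG42272, and its ranks were 8724, 4732 and 12836. The S6k start itself had only a pooled region of 22.79 at rank 22825. The IDR regions of S6k were therefore inside the gene, and the region at its start was outside the IDR list.

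Thor, the eIF4E-binding protein gene and a known target of foxo (FBgn0261560, chr2L:3478434-3479612, plus strand), is the shortest member at 1179 bp. Its promoter region (chr2L:3478239-3478678) had a signal of 122.6, with the summit 25 bp downstream of the Thor-RA start and 63 bp upstream of the Thor-RB start. The signals were 34.92, 52.18 and 21.95 at ranks 4749, 4583 and 7377. It was the weakest of the members' strongest regions, and 5657 of the 7256 genes with an IDR region (78.0%) had a stronger one. The other region, at 107.2, was downstream, in an intron of CG15414.

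Lk6, the eIF4E kinase gene (FBgn0017581, chr3R:11750931-11764457, minus strand), held the strongest region of all members, at 2225.4 and rank 6. The region (chr3R:11760808-11761296) lay in an intron of isoform Lk6-RA, 969 bp upstream of the internal start of Lk6-RB. Its signals were 602.1, 922.7 and 698.9 in replicates 1, 2 and 3, at ranks 11, 6 and 6. Only 14 of the 7256 genes with an IDR region (0.193%) had a stronger one. The 2 Lk6 starts themselves had weak pooled regions outside the IDR list, with 66.47 at the start of Lk6-RA and 23.53 at that of Lk6-RB. A second IDR region, at 123.1, was intronic, 1241 bp downstream of the Lk6-RB start.

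larp, the gene of the La-related RNA-binding protein (FBgn0261618, chr3R:28318162-28336440, minus strand), had 7 IDR regions and the second strongest of all, at 2098.4 and rank 8. That region (chr3R:28326308-28326864) was 335 bp upstream of the start of larp-RA and 358 bp upstream of that of larp-RE, and within an intron of the other 5 isoforms. Its signals of 621.8, 895.9 and 584.1 gave ranks of 8, 7 and 15. Of the genes with an IDR region, 19 (0.262%) had a stronger one. In Lk6 and larp alike, the strongest region was upstream of an internal start and inside an intron of the isoforms that start farther upstream, and far stronger than any region at the gene's first start.

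At the upstream larp starts the regions were weaker. The region 284 bp upstream of the larp-RG and larp-RH start (chr3R:28335605-28336044) had a signal of 218.6, with 86.33, 53.14 and 75.2 at ranks 1380, 4484 and 1546. The region 125 bp upstream of the larp-RD start had 103.6, with 44.51, 24.02 and 37.81 at ranks 3544, 11448 and 3944. Both were placed lower in replicate 2 than in replicates 1 and 3, unlike the region at the larp-RA start. Intronic regions of 94.13 and 111.6 lay 707 bp upstream and 914 bp downstream of the larp-RB start. The last 2, at 103.4 and 112.6, were in the upstream window but 99 bp from the start of asRNA:CR46105 and 163 bp from that of Gfat2, an enzyme of hexosamine synthesis.

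The strongest signal per member had a median of 473.4 over the 7 members with an IDR region, with a range of 122.6 to 2225.4. Over the 7256 protein-coding genes with an IDR region the median was 210.8, and over those of 10 kb or more it was 255.7. This value is a maximum over the regions of a gene, of which the members had a median of 3 and both other sets 2. Signal was also part of how the members were chosen, so their higher median describes that choice. By the mean difference in rank over the 3 replicate lists, the regions most like that of Lk6 were those of osa (2.67 ranks), CG32772 (3.67) and CG11050 (4.0). Those most like the larp region belonged to PNPase (1.33), CG32772 (2.67) and Lk6 itself (4.33). In replicates 1, 2 and 3 the Lk6 region was at ranks 11, 6 and 6 and the larp region at 8, 7 and 15. Regions this near the top of every list can differ by few ranks only, so these small differences follow from their strength.

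Of the 31 member regions, 28 had a summit within 100 bp in all 3 replicates, against 87.5% of the 7096 IDR regions. The other 3 were matched in 2 replicates, although all 31 overlapped a region of every replicate by at least 1 bp. For an intronic InR region at 93.77, the overlapping region of replicate 1 had its summit 337 bp away. For an intronic InR region at 82.5 and the larp region beside Gfat2, those of replicate 2 were also just past the limit, with the InR summit 111 bp away. Over the 28, the worst rank was a median of 1.86 times the best, with a range of 1.09 to 4.74, and over the other 6179 IDR regions matched in 3 replicates the median was 1.69. Replicate 1 gave the best rank to 14 of the 28 and replicate 3 the worst rank to 14 of the 28, against 31.7% and 33.7% of the other IDR regions. Looked at from the replicates, 32, 31 and 26 of the strongest 7096 regions of replicates 1, 2 and 3 lay in member windows. Of these, 27, 23 and 25 had an IDR summit within 100 bp.

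**Figure D2:**
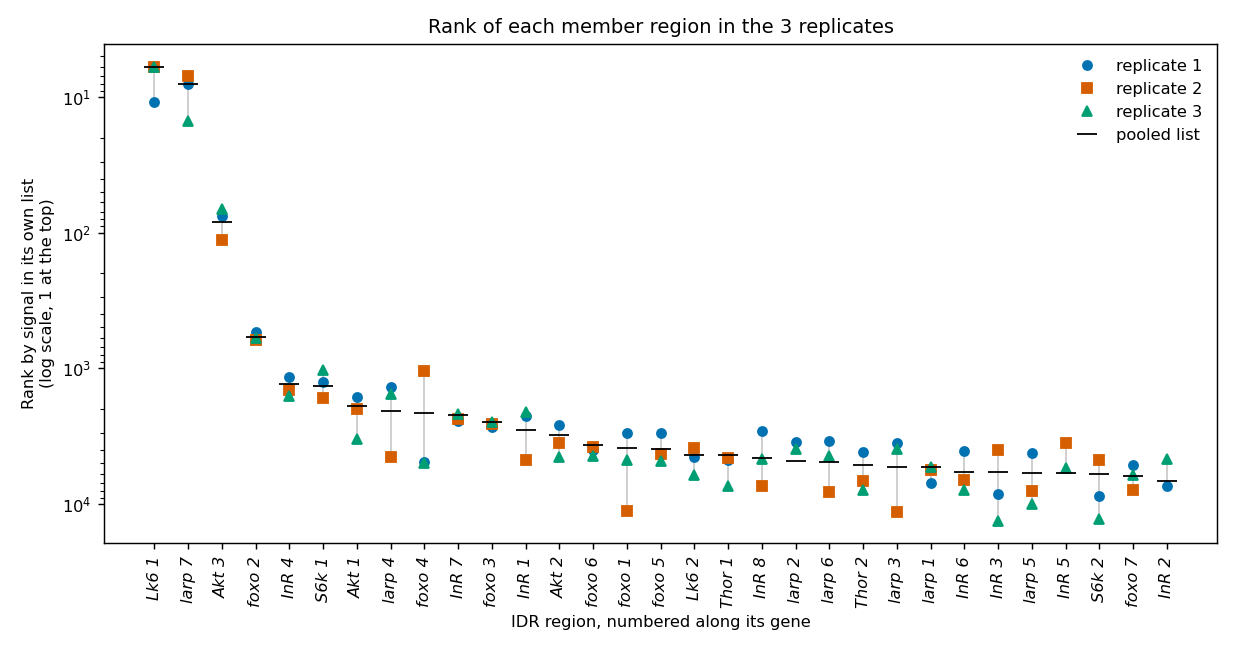
Rank of the 31 member IDR regions in the 3 replicate lists (coloured points) and in the pooled list (black dash), with regions on the x axis in order of pooled rank, numbered along each gene, and rank on a log y axis with 1 at the top and no point where a replicate has no summit within 100 bp. Points lie close together for foxo 3 and foxo 2, with the worst rank 1.09 and 1.14 times the best. For the strongest regions, Lk6 1 and larp 7, it is 1.83 and 2.14 times the best. They lie far apart for foxo 4, where replicate 2 is at 1048 and the others are at 4934 and 4971.

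The edges of the choice are as follows. The farthest summits within reach were 4896 and 4697 bp from Akt, 4590 bp from foxo and 4459 bp from larp. The nearest beyond 5 kb were 6003 bp from Thor, with a signal of 90.07, 7394 bp from InR, with 82.29, and 7968 bp from foxo, with 257.0. By signal, the weakest member IDR region had 82.5, and the strongest pooled regions of members outside the IDR list had 73.61 in Akt, 68.57 in InR and 67.71 upstream of Thor.

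The base composition of the sites was not used to choose the members. GC content within 50 bp of the summit was 33.0% ± 8.37 (SD over 31 regions), with a range of 20.8% to 52.5%, and in windows of the same width 300 bp to each side it was 45.5% ± 6.15. The summit window was poorer in GC than its flanks in 28 of 31 regions (90.3%). The other 7065 IDR regions had 33.3% ± 8.96 at the summit and 45.1% ± 6.97 in the flanks, with the summit lower in 82.6%. Pooled regions outside the IDR list averaged 40.0% at the summit. The means of the members and of the other IDR regions differed by far less than the SD over regions. Of the windows printed above, the Akt window was the poorest, at 20.8% GC with a run of 11 A or T bases, and S6k had 25.7% with a run of 15. The Lk6 and larp windows, the strongest sites, had 30.7% and 33.7% and shorter runs of at most 8 and 9. The exception shown, an intronic InR window, had 52.5%, against 40.1% in its flanks.

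**Figure D3:**
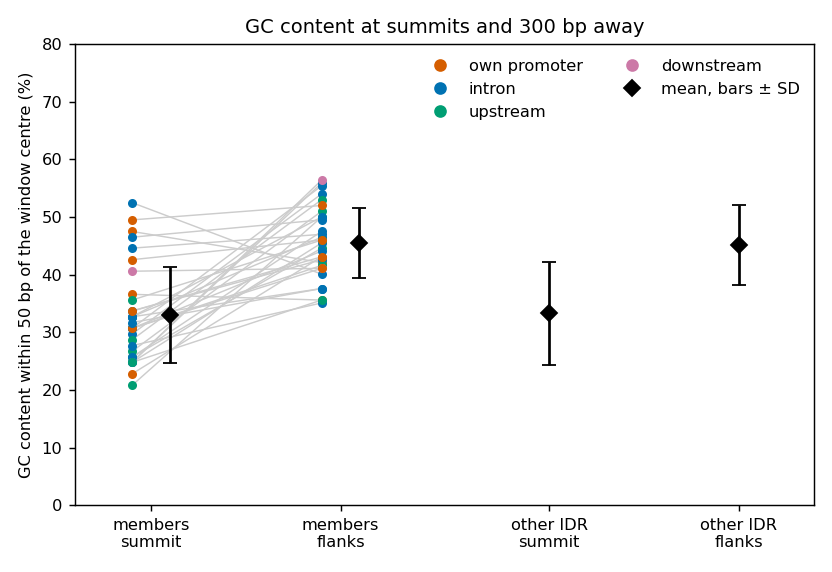
GC content (%) within 50 bp of the summit and, as the mean of both sides, of points 300 bp away. Coloured points joined by lines are the 31 member regions by position, and diamonds with bars are means ± SD over regions for the members and for the 7065 other IDR regions. The summit is below the flanks in 28 of 31 member regions, and the means of both sets nearly coincide.

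Words of known sequence motifs were searched on both strands of the member windows. The DRE, TATCGATA, was in 0 of 31 windows and 0.948% of the other IDR windows. CGATA, the core recognised by the insulator protein BEAF-32 and a part of the DRE, was in 5 windows (16.1%), against 12.5%. These were at the first foxo start, in the S6k intron, at the upstream Akt region beside Mhcl, upstream of InR-RD and in another InR intron. The TATA box word TATAAA was in 7 windows (22.6%), against 22.1%, among them the strongest InR region. The GATA words AGATAA and TGATAA were in 4 (12.9%), against 16.6%, the homeodomain word TAATTA in 1 (3.23%), against 9.81%, and GAGAG in 2 (6.45%), against 10.5%. The forkhead word GTAAACA and the E-box CACGTG were in 0 of 31 windows, against 2.62% and 0.566%. The windows of the strongest Lk6 and larp regions, printed above, held none of the 8 motifs.

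To place the members in their pathway, 58 other genes of insulin, TOR and translation control were looked up. Of these, 42 (72.4%) had an IDR summit in the gene or within 5 kb, and 18 (31.0%) in a promoter of their own, against 52.0% and 19.8% of all protein-coding genes. The genes of proximal signalling, which include sgg, a substrate of Akt, and 2 adaptors of the 14-3-3 family beside those between receptor and Akt, had one in the window in 9 of 9 cases and in the promoter in 7 of 9. Ligands and their binding proteins had one in the window in 3 of 10 cases and in the promoter in 1. The TOR complexes and their TSC inhibitors had 4 and 1 of 7, the nutrient and energy inputs 12 and 4 of 13, the translation machinery and its regulators 8 and 3 of 11, and downstream transcription and autophagy genes 6 and 2 of 8. The roles were not matched for gene length, and the shortest ligand gene has 549 bp. Among all coding genes, those under 10 kb had a summit in the window less often (48.7%) than longer ones (71.9%). Each gene was counted singly, whether or not its window overlapped that of another.

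The highest promoter signals of that list were 1379.8 at Sesn, whose product restrains TOR under stress, and 931.8 at REPTOR, a transcription factor that TOR holds inactive. Then came eIF4EHP, a cap-binding repressor of translation, with 915.7, and sgg, the fly GSK-3 kinase, with 862.9. Wdr24, a subunit of the GATOR2 complex, had 532.6, and Pi3K21B, the regulatory subunit of PI 3-kinase, had 426.0. Lkb1, a kinase that activates AMPK, had 205.8 and the adaptor 14-3-3zeta had 152.5. In the 3 replicates Sesn was at ranks 57, 31 and 64, and REPTOR at ranks 229, 108 and 80. The Sesn summit was equally near a start of CG46429, and the eIF4EHP summit was nearer a start of CG18428. Among genes with no promoter summit, AMPKalpha had no IDR summit in its window, whereas Atg1, Atg13 and eIF2alpha had 5, 3 and 1 there. In the wider windows, regions about as strong as those of Lk6 and larp stood near Gcn2, at 2157.8, and slif, at 2029.0, a pair of genes named after their values were seen. The region near Gcn2, a kinase of eIF2alpha, is the one given above for PNPase.

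**Figure D4:**
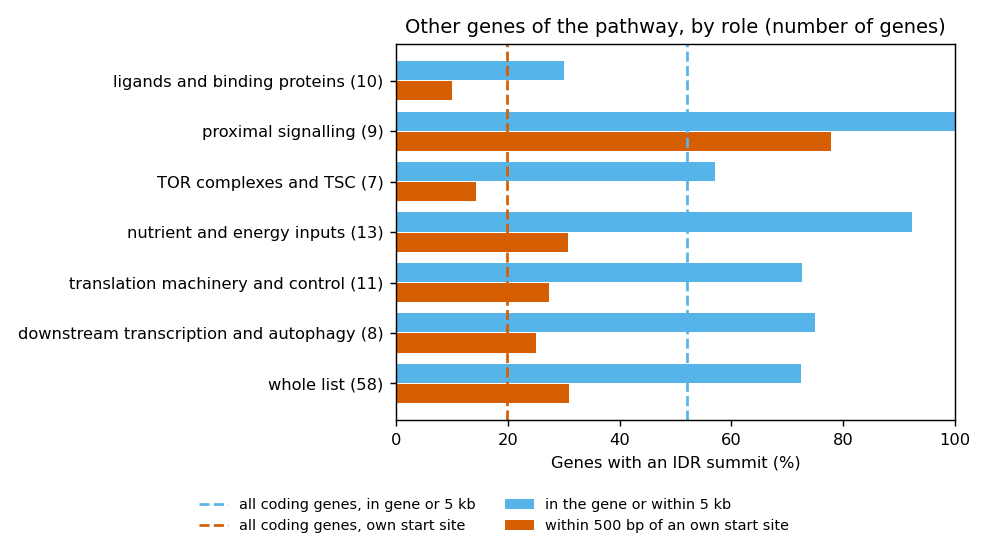
Share (%) of the 58 other pathway genes with an IDR summit, by role, with the number of genes in parentheses. Blue bars count summits in the gene or within 5 kb and orange bars summits within 500 bp of an own start site, and dashed lines give the same shares for all protein-coding genes (52.0% and 19.8%). Proximal signalling genes have the longest bars and ligands the shortest, with no matching for gene length.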

How the data were processed

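The values analysed are narrowPeak region lists on dm6 for 3 replicates, the pooled replicates and the optimal IDR selection. The signal of each region is the authors' deposited value, and a control library entered the calling, per the file headers. Per the labels, sonication gave sizes between 200 and 800. The aligner, the caller and the cut-off of the IDR step were not given in the sources used here. Read depth is unknown from these lists, so no interval was attached. Lists on another assembly were not used.

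Summits (start plus deposited offset, counted from 1) were compared with genes of Ensembl release 115 (BDGP6, the dm6 assembly) and with RefSeq sequence, in Python 3.11.15 with pandas 2.3.3 and numpy 2.4.6. A replicate match is a summit within 100 bp. Counting was checked on simulated regions. Members and lists were chosen with earlier results of these data known. Named genes are the 9 members, genes with a TSS within 500 bp of their summits, the 3 nearest in rank to Lk6 and larp, and, of the pathway list, the 8 highest promoter signals and the first 4 alphabetically without one. Other genes appear only as the nearest or enclosing gene of a summit, or are said to be named after their values were seen. Reach, promoter window, signal threshold, matching and the replicates required for a match were varied.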

Additional observations from a re-analysis of the deposited data

How the results depend on the processing

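The number of IDR summits in member windows, 31, was 19 inside the genes alone, 13 with only IDR regions above the median signal and 110 in the whole pooled list. Members with a promoter summit were 8 in place of 4 in the pooled list. Above the median signal, 13 of the 13 regions were matched in all 3 replicates, against 28 of the 31 in the main setting. The matched regions were 17 of the 31 where only the strongest 7096 regions of each replicate counted. Intronic summits were 5 of the 13 above the median signal, against 15 of the 31. The share of all protein-coding genes with a summit, 52.0%, was 14.2% inside the gene alone, 37.4% within 2 kb and 67.5% within 10 kb. It was 35.8% above the median signal and 78.9% in the pooled list. Where only IDR regions matched in a given pair of replicates counted, it was 49.5% to 50.3%. The IDR list was still the one made from all 3 replicates. Pathway genes with a promoter summit were 9 in place of 18 above the median signal and 36 in the pooled list. The cause of these moves was not tested beyond what each setting changes by construction. The other 41 alternative values stayed within 1.5 times the main count or within the spread between regions. No paired analysis was possible because only a single group exists. Groups of 3 samples are too small for the check on single outlying samples. A summit within 5 kb of a gene does not show that it acts on that gene.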

Other observations

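Other strong regions of single replicates in member windows had no IDR summit within 100 bp. In the body of Akt, 670 bp downstream of its start, replicate 2 had a region of 55.42 at rank 4233, and the pooled list had one 54 bp away outside the IDR list. In the larp gene, 1235 bp upstream of the larp-RB start, replicate 2 had a region of 49.95 at rank 4840. The pooled list had a summit 11 bp from it, also outside the IDR list. In the first part of S6k, 861 bp downstream of its start, replicate 1 had a region of 29.22 at rank 5862, and the nearest pooled summit was 173 bp away. These values were not followed further.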
